A study of Mus musculus with 9 samples.

Results

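The nuclear genes that encode the subunits of the respiratory chain and of the ATP synthase were examined in RNA-seq libraries of mouse muscle and muscle cells. Members were the protein-coding genes whose symbol begins with Nduf, Uqcr, Atp5 or Cox4 to Cox8, together with Sdha, Sdhb, Sdhc, Sdhd, Cyc1 and Cycs. The rule found 95 genes among the 36842 genes listed in the count files of both tissue and cultured cells. They comprised 36 subunit genes of complex I, 8 complex I assembly factors (Ndufaf), 4 genes of complex II, 9 of complex III with Cyc1, the cytochrome c gene Cycs, 20 of complex IV, 16 of the ATP synthase, and Atp5s, which was kept apart. Ndufa4 and Ndufa4l2, named for complex I but assigned to complex IV, were counted with complex IV. They lie on 19 chromosomes.

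The series held 9 libraries from C57BL/6 mice, the J substrain by the methods. GAS (3 libraries) was whole gastrocnemius, a mostly fast-twitch hindlimb muscle, of female animals aged 8 to 12 weeks, sequenced from poly(A) RNA. MB (2 libraries) were primary myoblasts in growth medium that held basic FGF at 10 ng/ml, horse serum at 10% and FBS at 20%, given PBS as vehicle. MB_lac (2 libraries) were the same cells given 10 mM sodium-L-lactate in PBS, and MT (2 libraries) were myotubes after 3 days in medium with 2% horse serum. The labels call the libraries biological replicates without naming the animal or culture behind each, and MT and MB differed in medium as well as in cell state. Cultured cells were sequenced by Smart-seq2, a low-input full-length method, so that values in GAS and in cultured cells are set side by side without a test. In bulk RNA, a lower number of cells of a type and less RNA per cell cannot be told apart.

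The respiratory chain moves electrons from NADH (complex I) and succinate (complex II) through complex III and cytochrome c to oxygen (complex IV). The proton gradient this builds drives the ATP synthase. A few core subunits of complexes I, III and IV and of the ATP synthase are encoded in mitochondrial DNA, and nuclear genes supply the rest, including all of complex II. Complex IV has some subunits in alternative forms: Cox6a2, Cox7a1 and Cox8b are known as the forms of heart and skeletal muscle, and Cox6a1, Cox7a2 and Cox8a as those of most other tissues.

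No window was at hand for Cox6a2, so its pair with Cox6a1 is left out. The windows around the start of the genes of the other isoform pairs are shown because the isoform pairs carry the main difference between MT and MB. Each is RefSeq sequence on GRCm38.p6, 250 bases before to 50 after the annotated start, 5′ to 3′ on the gene's strand, with capitals for matches to the motifs described next. The muscle isoform genes Cox7a1 (chr7:30183921-30184220, plus strand) and Cox8b (chr7:140900397-140900696, minus strand) come first, then the ubiquitous Cox7a2 (chr9:79759804-79760103, minus strand) and Cox8a (chr19:7217567-7217866, minus strand).
Cox7a1: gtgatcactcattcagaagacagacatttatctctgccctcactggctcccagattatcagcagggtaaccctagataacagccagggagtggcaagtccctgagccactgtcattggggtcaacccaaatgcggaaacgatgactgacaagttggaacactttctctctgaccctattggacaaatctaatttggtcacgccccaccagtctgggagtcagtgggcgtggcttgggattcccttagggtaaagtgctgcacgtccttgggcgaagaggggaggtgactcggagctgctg
Cox8b: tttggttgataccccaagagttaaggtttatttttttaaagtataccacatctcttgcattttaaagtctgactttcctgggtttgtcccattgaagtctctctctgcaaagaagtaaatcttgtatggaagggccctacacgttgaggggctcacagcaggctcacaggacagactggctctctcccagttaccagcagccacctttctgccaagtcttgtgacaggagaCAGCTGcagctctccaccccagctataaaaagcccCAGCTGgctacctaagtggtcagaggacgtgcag
Cox7a2: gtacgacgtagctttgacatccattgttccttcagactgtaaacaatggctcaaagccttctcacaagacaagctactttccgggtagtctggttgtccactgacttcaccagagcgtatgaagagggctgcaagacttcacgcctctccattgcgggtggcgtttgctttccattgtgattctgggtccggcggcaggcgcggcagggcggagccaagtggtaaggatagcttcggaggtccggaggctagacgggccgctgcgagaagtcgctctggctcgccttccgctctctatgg
Cox8a: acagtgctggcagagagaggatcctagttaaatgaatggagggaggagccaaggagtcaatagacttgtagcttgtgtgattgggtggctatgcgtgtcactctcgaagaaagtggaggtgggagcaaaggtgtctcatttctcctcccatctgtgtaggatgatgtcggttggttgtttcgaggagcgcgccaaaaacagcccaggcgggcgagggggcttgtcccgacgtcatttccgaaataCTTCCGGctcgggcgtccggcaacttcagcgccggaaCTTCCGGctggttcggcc

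Windows of 75 of the 95 members were at hand. The motifs were searched on both strands, and none of them contains another: CCGGAAG (the core bound by ETS factors such as GABPA), ATGGCGG (YY1), CAGCTG (an E-box, read by myogenic factors such as MyoD), and the consensus motifs of NRF1 and MEF2. CCGGAAG was found in 18 of the 75 member windows (24.0%) and in 9.93% of all 27025 genes with a window. The NRF1 consensus was found in 7 members (9.33%) against 1.41% of all genes, and ATGGCGG in 12 members (16.0%) against 4.69%. CAGCTG was found in 6 members (8%) against 18.3%, and the MEF2 consensus in 0 members against 3.70%. The Cox8b window held CAGCTG on either side of the start, the first match beginning 19 bases upstream, and the Cox8a window held CCGGAAG across the start and again downstream of it. Neither the Cox7a1 nor the Cox7a2 window matched any of these motifs. These matches describe letters in the windows and are not evidence of binding.

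The coding sequences within each isoform pair differed. Cox6a1 and Cox6a2 matched at 64.6% of aligned bases, Cox7a2 and Cox7a1 at 62.6%, and Cox8a and Cox8b at 56.4%. None of these genes had a copy elsewhere in the annotation with at least 95% identity over at least 80% of its coding sequence. Of all members, 23 had such a copy, mostly a processed pseudogene, and for 13 the copies took over 5% of the reads counted on gene and copies together in the cultured libraries. The share was highest for Ndufs5 (43.7%) and Atp5g1 (16.3%), whose levels in these libraries are uncertain to that extent. In GAS the copy of Ndufs5 held a smaller part, with 159 counts against 6656 for the gene. The copy of Atp5g1 held 3770 counts there against 15706, a part that was not smaller. The copies Gm10231 and Gm10175 of Atp5g2 held 1600 and 1717 counts against 8330. Gm10053 and Gm10108 held 3552 and 2165 against 20486 for Cycs, so that GAS levels of such genes are uncertain too.

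Libraries held 19307793 to 19941574 counts in GAS and 5198247 to 10839516 in cultured cells. MT replicate 1 stood apart: 28599 genes had a count there, against 15548 to 17965 in the other cultured libraries. Of the genes with 0 counts in MT replicate 2, 4730 had 10 or more in its partner library, against 4 genes for the reverse. MT markers (Myog, Mymk, Myh3, Ckm) were higher in MT than in MB for 4 of 4 genes, and adult fast muscle markers for 5 of 5. Of the MB markers, Pax7 was lower in MT. Fibroblast markers also moved: Dcn, Col1a1 and Col3a1 were higher in MT (3 of the 4 tested), and the summed level of the 5 listed genes was 14009 to 25721 CPM (counts scaled to library size) in MT against 221 to 504 CPM in MB. Cidea, a brown adipocyte marker, was called higher in MT, at 1.27 and 1.22 CPM against 0 in both MB libraries. These levels are near the floor, and the call was lost with DESeq2 and with no filter on low counts. Ucp1, the other gene of that list, was too low to be tested. With all 4 libraries of MT and MB, endothelial, leukocyte, white adipocyte, red blood cell and heart markers were too low to be tested, but their summed levels stood out in MT replicate 1. Endothelial markers were at 10.2 CPM there, leukocyte markers at 11.2, heart markers at 8.45, white adipocyte markers at 3.67 and red blood cell markers at 3.03 CPM, against at most 0.979 CPM in MT replicate 2 and at most 1.31 CPM in MB for any of these lists. Fitted without MT replicate 2, the markers that passed the count filter had median log2 fold changes per list of 7.77 to 9.22. Since they failed that filter with all 4 libraries, these values rest on MT replicate 1 alone. In GAS, the summed red blood cell markers (Hbb-bs, Hba-a1) were at 686 to 3534 CPM and the endothelial ones at 109 to 130 CPM. The part of these cells in the results was not tested.

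MT were compared with MB to learn which of these genes change as myoblasts differentiate. The muscle isoforms Cox6a2, Cox7a1 and Cox8b rose from near absence, and the complex I gene Ndufv3 rose 3.63-fold. No member fell past the threshold. A gene was called at an adjusted p (edgeR quasi-likelihood test, Benjamini-Hochberg) below 0.05 with an absolute log2 fold change above 0.5. Of the 95 members, 90 had enough counts to be tested, and 4 were called higher and 0 lower. Cox6a2, Cox7a1 and Cox8b passed the count filter through MT, as MB held 11 and 4, 10 and 3, and 1 and 3 counts. Genes this low in MB could only be called higher. Among all 12921 genes tested, 11% were called higher and 6.86% lower. DESeq2 likewise called 4 members higher and 0 lower. At an unadjusted p below 0.05, 8 of the 90 members were higher and 0 lower, against 18.2% and 14.3% of all genes. The median log2 fold change of the members was 0.03 (quartiles -0.36 and 0.43), against 0.07 over all genes tested (quartiles -0.73 and 1.02). The median standard error of a member was 0.46 on the log2 scale. Both MT libraries lay above both MB libraries for 23 of the tested members, a pattern seen in 33.5% of all genes, and below them for 19, a pattern seen in 28.7%.

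**Figure D1:**
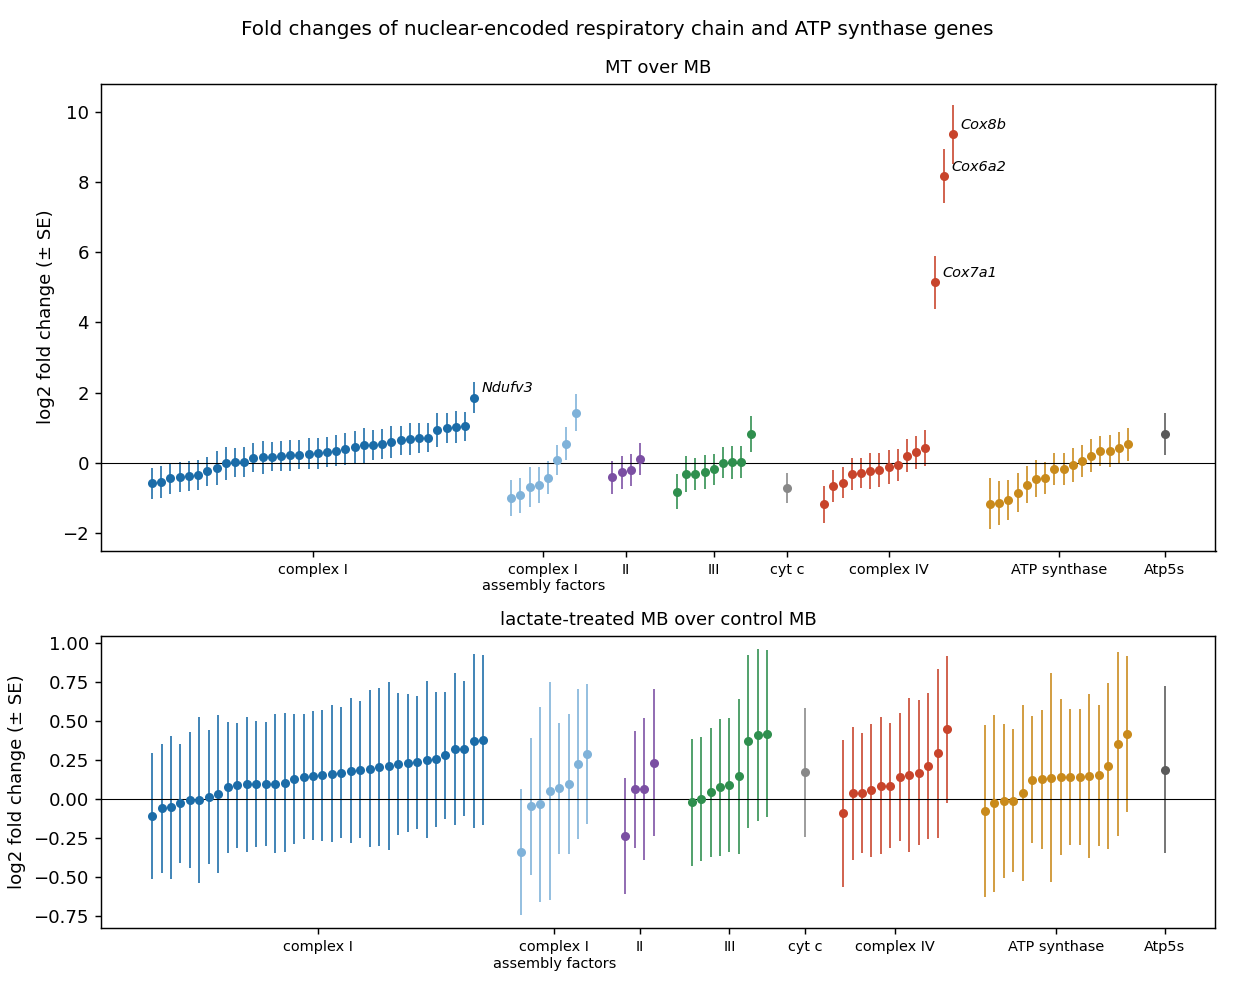
The upper panel shows the log2 fold change of MT over MB for the 90 tested members and the lower panel that of MB_lac over MB for the 87 tested there, each with its standard error from edgeR and sorted within its complex. The 3 muscle isoforms stand at 5.14 to 9.35 in MT over MB, Ndufv3 is at 1.86, and the lactate values lie between -0.34 and 0.45; the axes of the panels differ.

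Cox6a2 encodes the muscle form of subunit VIa. It had 171 and 377 CPM in MT and 1.44 and 0.456 CPM in MB. The log2 fold change was 8.17 ± 0.76 (SE), with an edgeR adjusted p of 0.000142. From 5236 counts in MT and 15 in MB, the ratio was 277, with a 95% interval of 168 to 495 that covers counting error only. MT replicate 2 held the higher level, and the groups were far apart.

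Cox8b, the muscle form of the small subunit VIII, had 87.9 and 249 CPM in MT and 0.131 and 0.342 CPM in MB, the latter from 1 and 3 counts. The log2 fold change was 9.35 ± 0.84, with an edgeR adjusted p of 0.000119. The ratio of normalised counts was 621, with a counting interval of 242 to 2281. With 4 counts in all in MB, the size of the fold is loosely fixed.

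Cox7a1, the muscle form of subunit VIIa, had 34.6 and 23.7 CPM in MT and 1.31 and 0.342 CPM in MB. The log2 fold change was 5.14 ± 0.76 (edgeR adjusted p = 0.00158), and the ratio was 38.3 with a counting interval of 22.2 to 72.3. Here MT replicate 1 held the higher level, the reverse of the order for Cox6a2 and Cox8b. The genes of all 3 isoforms lie on chromosome 7. All 3 stayed called with any one library left out, at log2 fold changes of at least 4.37.

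The ubiquitous partners did not fall past the threshold. Cox8a had 167 and 355 CPM in MT and 694 and 478 CPM in MB, a log2 fold change of -1.18 ± 0.54 (edgeR adjusted p = 0.156), the most negative estimate among the members. Cox6a1 had 237 and 251 CPM in MT and 432 and 333 CPM in MB, at -0.66 ± 0.45. Both were lower in each MT library than in each MB library. Cox7a2 overlapped between the groups, with 178 and 344 CPM in MT, 289 and 275 CPM in MB and a log2 fold change of -0.13 ± 0.48.

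The make-up of each pair was described as the share of the muscle form in the summed RPKM (reads per kilobase of exon, scaled to library size) of both forms. In MB, Cox6a2 made up 0.242% ± 0.142 (SD, n = 2) of its pair, Cox7a1 0.506% ± 0.405 and Cox8b 0.0776% ± 0.0640. In MT the shares were 51.8% ± 12.8 for Cox6a2, 18.2% ± 10.4 for Cox7a1 and 51.0% ± 5.07 for Cox8b. In GAS (n = 3) they were 98.1% ± 0.300, 73.2% ± 0.610 and 96.5% ± 0.161. The order MB, MT, GAS held for all 3 pairs with no overlap of libraries, while GAS came from another protocol. The summed RPKM of a pair overlapped between MT and MB for each pair. For Cox8a and Cox8b it was 515 and 1264 in MT against 1121 and 774 in MB.

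**Figure D2:**
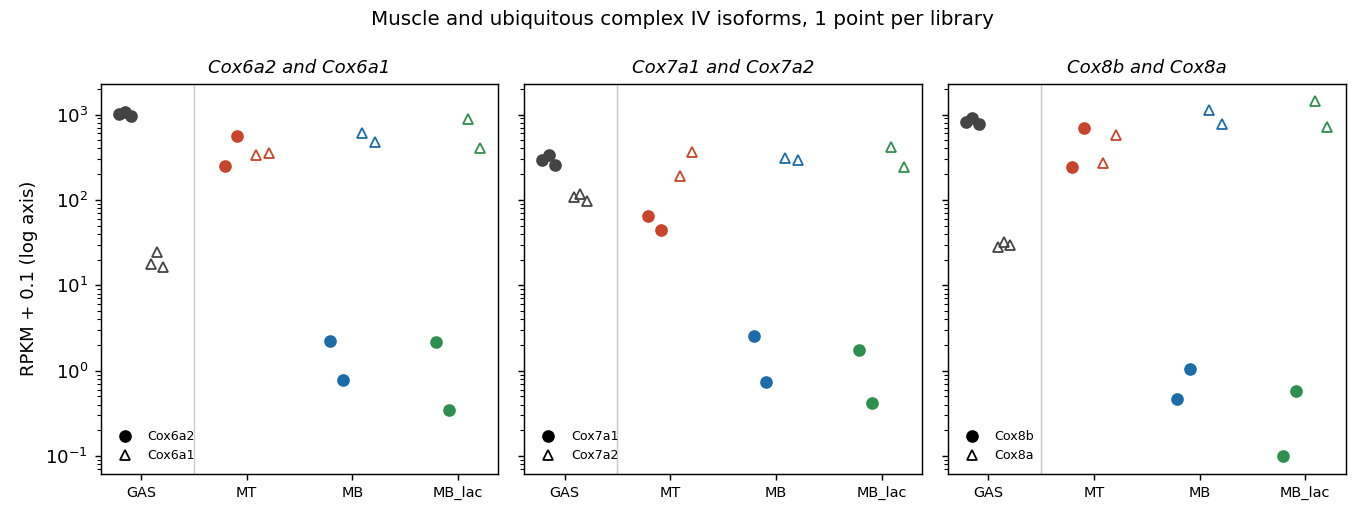
Level of the muscle isoform (filled circles) and of its ubiquitous partner (open triangles) in each library, as RPKM + 0.1 on a log axis, for GAS (n = 3), MT, MB and MB_lac (n = 2 each). The muscle isoforms sit below 3 RPKM in MB and MB_lac and above 40 RPKM in MT, and in GAS all 3 exceed their partners.

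**Figure D3:**
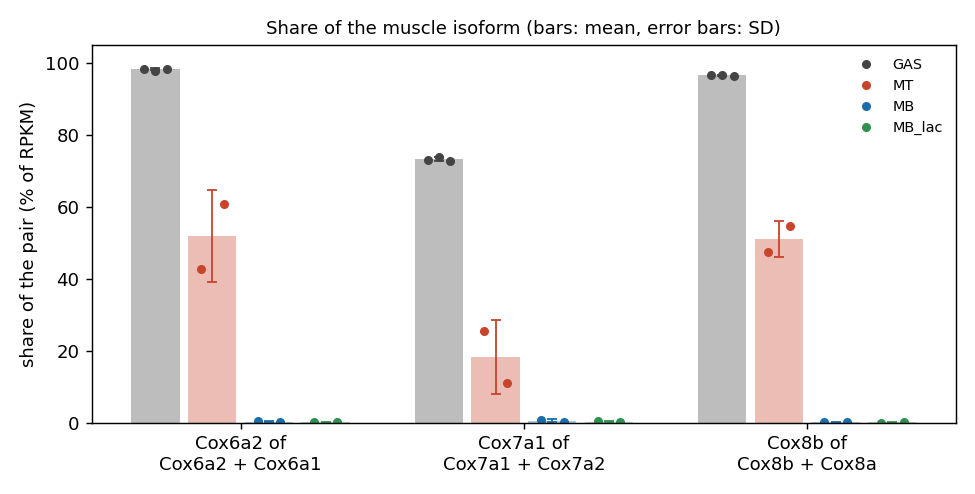
Share of the muscle isoform in the summed RPKM of its pair; bars are means, error bars SDs and points single libraries. The share is at most 0.792% in every MB and MB_lac library, 10.9 to 60.8% in MT and 72.7 to 98.3% in GAS.

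The remaining alternative forms of complex IV were scarce in cultured cells. Cox4i2, a hypoxia- and lung-associated form of subunit IV, had 85 and 3 counts in MT and 0 and 2 in MB. Cox7b2 and Cox8c, both known from testis, had 37 and 42 counts in MT replicate 1 and 0 in each of the MT replicate 2, MB replicate 1 and MB replicate 2 libraries. Cox6b2, the testis form of subunit VIb, had at most 1 count in any MT or MB library, and Ndufa4l2 had 11 and 0 counts in MT and 2 and 5 in MB. These are the 5 members that were not tested. Fitted without MT replicate 2, so that MT rested on replicate 1 alone, the log2 fold changes of Cox4i2, Cox7b2 and Cox8c were 5.50, 7.73 and 7.92. Most of their counts lay in MT replicate 1, the library with 10 or more counts for 4730 genes that had 0 in its partner. The cause was not tested. Cox6a2, Cox7a1 and Cox8b were detected in both MT libraries.

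No other subunit of complex IV was called. Cox4i1, the ubiquitous form of subunit IV, had 590 and 680 CPM in MT and 908 and 567 CPM in MB, a log2 fold change of -0.23 ± 0.52. Cox7a2l, a supercomplex factor related to Cox7a2, was at -0.32 ± 0.45, and Ndufa4 at -0.20 ± 0.49. Cox6b1 was at 0.21 ± 0.48, Cox6c at 0.30 ± 0.47 and Cox7b at 0.42 ± 0.51. The sign of Cox4i1, Ndufa4, Cox6b1, Cox6c and Cox7b turned when a library was left out. Apart from the muscle forms, 0 of the tested complex IV genes were called.

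Complex I held the other called member. Ndufv3 encodes a small accessory subunit of the NADH-binding module, with a long and a short splice form, which gene counts cannot tell apart. It had 230 and 228 CPM in MT and 69.0 and 55.8 CPM in MB, and the groups did not overlap. The log2 fold change was 1.86 ± 0.43 (edgeR adjusted p = 0.0145). With 3 libraries the estimate stayed between 1.64 and 1.89, but the adjusted p was 0.0830 without MT replicate 1, 0.0623 without MT replicate 2 and 0.0513 without MB replicate 2, and the call was lost.

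Of the 36 complex I subunits, all tested, 27 had a positive estimate and the median log2 fold change was 0.27. It was -0.05, with 17 positive, without MT replicate 2. Besides Ndufv3, an unadjusted p below 0.05 was reached by 3 further subunits, all accessory and all higher in both MT libraries. Ndufa6 had 146 and 163 CPM in MT and 74.1 and 74.6 CPM in MB, at 1.04 ± 0.41 (edgeR adjusted p = 0.107). Ndufa13, also known as GRIM-19, was at 1.03 ± 0.46 (edgeR adjusted p = 0.153) and Ndufa1, an X-linked membrane arm subunit, at 0.98 ± 0.43 (edgeR adjusted p = 0.140). Ndufa5 was at 0.94 ± 0.48 and was called only without MB replicate 2 (1.57, adjusted p = 0.0456). The most negative estimates were those of the iron-sulfur core subunits Ndufs7 (-0.58 ± 0.45) and Ndufs8 (-0.55 ± 0.45), whose MT libraries lay below the MB libraries. Ndufa11 was at 0.35 ± 0.44 and overlapped.

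The complex I assembly factors, which help build the enzyme and are not part of it, were expressed at lower levels. All 8 were tested, 0 were called, and 3 had a positive estimate. Ndufaf3 was at 1.43 ± 0.52 (edgeR adjusted p = 0.0849), with 39.4 and 44.4 CPM in MT and 20.8 and 10.2 CPM in MB. Ndufaf2, a chaperone for late assembly, had the most negative estimate at -0.99 ± 0.51, and Ndufaf5, which modifies Ndufs7, was at -0.93 ± 0.49. Without MB replicate 1, Ndufaf3 was called higher (1.90), and Ndufaf2 (-1.46) and Ndufaf4 (-1.41) were called lower, the latter with 31.0 CPM in MB replicate 1 and 99.0 CPM in MB replicate 2.

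No gene of complexes II or III was called. The flavoprotein gene Sdha had 400 and 494 CPM in MT and 436 and 384 CPM in MB, at 0.11 ± 0.47. Sdhb, the iron-sulfur subunit, was at -0.41 ± 0.47, and the membrane anchors Sdhc and Sdhd were at -0.27 ± 0.46 and -0.20 ± 0.44. In complex III the estimates ran from -0.82 ± 0.50 for Cyc1, the cytochrome c1 gene, to 0.82 ± 0.52 for Uqcrb, and Uqcrh, the hinge protein, was at -0.25 ± 0.48. Cycs, the somatic cytochrome c, had 133 and 142 CPM in MT and 203 and 247 CPM in MB, at -0.73 ± 0.43. Cyc1 and Cycs were lower in both MT libraries than in both MB libraries without passing the test.

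No ATP synthase gene was called, and its most abundant subunits had negative estimates. Atp5b, the catalytic beta subunit, had 1433 and 2810 CPM in MT and 6144 and 3296 CPM in MB, a log2 fold change of -1.17 ± 0.72 (edgeR adjusted p = 0.293). Atp5a1, the alpha subunit, had 711 and 1172 CPM in MT and 2774 and 1358 CPM in MB, at -1.15 ± 0.63 (edgeR adjusted p = 0.236). For both, each MT library lay below each MB library, and MB replicate 1 stood well above MB replicate 2. The c-ring, the rotor through which protons pass, is encoded by Atp5g1, Atp5g2 and Atp5g3, which yield the same mature protein. Their estimates were -0.43 ± 0.46, -1.05 ± 0.57 and -0.62 ± 0.52, and Atp5g2 was called lower only without MB replicate 2 (-1.64, adjusted p = 0.0205). The most positive estimate of the 16 genes was 0.53 ± 0.48 for Atp5e, the epsilon subunit. Atp5s, a coupling factor-related gene, was at 0.82 ± 0.60 and low throughout.

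The summed RPKM of each complex was compared with the spread of the libraries (the combined SD of the log2 sums). Its log2 ratio of MT over MB was 0.29 for complex I with a spread of 0.26, and it was smaller than the spread for the rest, at -0.20 for complex II, -0.09 for complex III, 0.06 for complex IV and -0.52 for the ATP synthase. Members took 2.07 and 2.52% of all counts in MT and 2.54 and 2.32% in MB. Between the MT libraries, 74 of 93 members over 1 RPKM were higher in replicate 2.

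**Figure D4:**
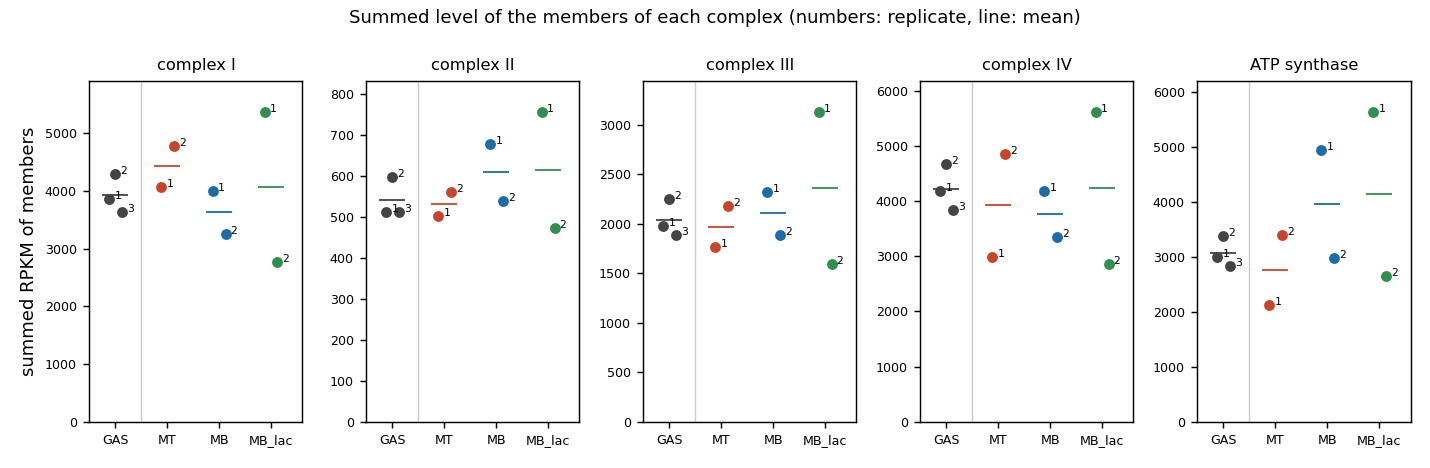
Summed RPKM of the members of each complex in each library, with replicate numbers beside the points and a line at the mean; each axis starts at 0. Replicate 1 lies far above replicate 2 in MB_lac for all 5 complexes (5372 against 2764 for complex I), and below it in MT (4079 against 4779 for complex I).

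Other mitochondrial genes were read from lists, whose counts stand beside 11% of all genes called higher and 6.86% called lower. Of 39 tested assembly factors of all complexes outside the member list, 2 were called higher and 0 lower: Tmem126b, a complex I assembly factor, at 1.78 ± 0.53 (edgeR adjusted p = 0.0414) and Higd1a, a hypoxia-induced factor that binds complex IV, at 1.49 ± 0.45 (0.0444). In fits with 3 libraries 0 or 1 of that list were called. Of 14 tested regulators of mitochondrial genes, 0 were higher and 2 lower, Pprc1, a growth-regulated relative of PGC-1alpha (-2.30 ± 0.46, edgeR adjusted p = 0.00778), and Myc (-2.92 ± 0.48, edgeR adjusted p = 0.00282). Ppargc1a, the gene of PGC-1alpha, was at 0.36 ± 0.64. Of 8 tested carriers and energy transfer genes, 1 was higher, Ckmt2, the mitochondrial creatine kinase of striated muscle, at 34.7 and 35.8 CPM in MT and 0 in both MB libraries. Against a floor of 3 counts per MB library, Ckmt2 was at least 96-fold higher. Of 16 other mitochondrial proteins (import, chaperones, cristae), 0 were higher and 4 lower (Tomm40, Timm50, Hspd1 and Phb2), with a median log2 fold change of -1.15. With 3 libraries the list median ran from -1.44 (without MT replicate 2) to -1.01 (without MB replicate 1), and these calls did not hold in every such fit. The 13 subunits encoded in mitochondrial DNA had a median of 0.99, and 0 were called in the main fit, which did not hold in every alternative fit. Their summed level was 11690 and 17040 CPM in MT, but 3010 and 13135 CPM in MB, and without MB replicate 2 the median was 1.99.

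Lactate-treated MB were compared with control MB to see whether lactate alters gene expression in myoblasts. No member changed past a threshold. Of the 87 members tested, 0 were called at a nominal p below 0.01 with an absolute log2 fold change above 0.5, and 0 had an unadjusted p below 0.05. Among all 11804 genes tested, 0% were called higher and 0% lower by that rule, 0% had an adjusted p below 0.05 in edgeR, and 5 genes had an unadjusted p below 0.05. The paper, with edgeR at the same nominal thresholds, reports a small group of changed genes for this treatment. Those calls were not recovered by this fit, and the paper does not name which edgeR test it used. DESeq2 called 0 members in either direction. The member medians of the 95% interval of a log2 fold change were -0.96 and 1.20, so that at this depth and spread a typical member could have changed by as much in either direction without detection.

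The estimates of the members leaned upward, and the libraries of one group disagreed. Their median log2 fold change was 0.14, with 70 of 87 positive, against a median of 0.00 over all genes. It was -0.30 without MB_lac replicate 1 and 0.44 without MB_lac replicate 2. Of the 88 members over 1 RPKM in MB_lac, 85 were higher in replicate 1 than in replicate 2, with a median log2 ratio of 0.93, against 0.08 over all genes over 1 RPKM. Between the MB libraries the same ratio was 0.33 for the members and 0.21 for all genes. The summed level ran from 20785 RPKM for all members in MB_lac replicate 1 to 10537 RPKM in replicate 2, around 16339 and 12238 RPKM in MB.

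The smallest p-values among the members belonged to Cox7b, Atp5l and Ndufaf7. Cox7b, a small subunit of complex IV, had 99 and 177 CPM in MB and 225 and 160 CPM in MB_lac, at 0.45 with a 95% interval of -0.69 to 1.59. Atp5l, subunit g of the ATP synthase, had 157 and 91.1 CPM in MB and 232 and 100 CPM in MB_lac, at 0.42 with an interval of -0.79 to 1.62. Ndufaf7, a methyltransferase that acts in complex I assembly, had 44.0 and 43.3 CPM in MB and 40.3 and 29.4 CPM in MB_lac, at -0.34 with an interval of -1.31 to 0.64. It was the single member whose groups did not overlap on the lower side, where 7.56% of all genes did not overlap. On the higher side 0 members and 3.47% of all genes did not overlap.

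The muscle isoforms remained near absence after lactate. Cox6a2 had 8 and 1 counts in MB_lac and 11 and 4 in MB, Cox7a1 5 and 1 against 10 and 3, and Cox8b 0 and 1 against 1 and 3. They were too low to be tested. Ndufv3 was at -0.05 with a 95% interval of -1.17 to 1.06. Cox6a1, Cox7a2 and Cox8a were at 0.21, 0.14 and 0.17. Of the genes on the lists of assembly factors, regulators, carriers, other mitochondrial proteins, mitochondrial DNA subunits and cell type markers, 0 were called.

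In GAS, these genes were among the most abundant transcripts. Of 95 members, 92 had a mean over 1 RPKM, 74 were among the 1000 genes with the highest RPKM of all 36842, and together they took 2.12 to 2.57% of all counts. The median member was at 113 RPKM. RPKM divides by the length of all annotated exons of a gene. With the length of the principal transcript instead, the median was 194 RPKM. GAS replicate 2 held the highest level for most members: 90 of 92 were higher there than in replicate 3, by a median log2 ratio of 0.23, against 0.00 over all 9874 genes over 1 RPKM.

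The muscle isoforms Cox6a2 and Cox8b led the list by exon length. Cox6a2 had 1020, 1085 and 948 RPKM, and Cox8b 816, 900 and 773 RPKM, without overlap. They were followed by Atp5a1 at 531, 595 and 520 RPKM and Atp5b at 495, 545 and 487 RPKM, which overlapped. By principal transcript length Atp5b came first, at 1126 RPKM, then Cox6a2 at 1018, Atp5e at 830 and Cox8b at 830 RPKM. Cox7a1, at rank 9 among the members by exon length and 21 by principal transcript, was at 290, 335 and 255 RPKM. It lay above Cox7a2 at 107, 118 and 95.9 RPKM in each library. Their partners were far lower than the muscle forms in the other pairs, with Cox6a1 at 17.5, 24.4 and 16.1 RPKM and Cox8a at 28.0, 32.1 and 29.2 RPKM.

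**Figure D5:**
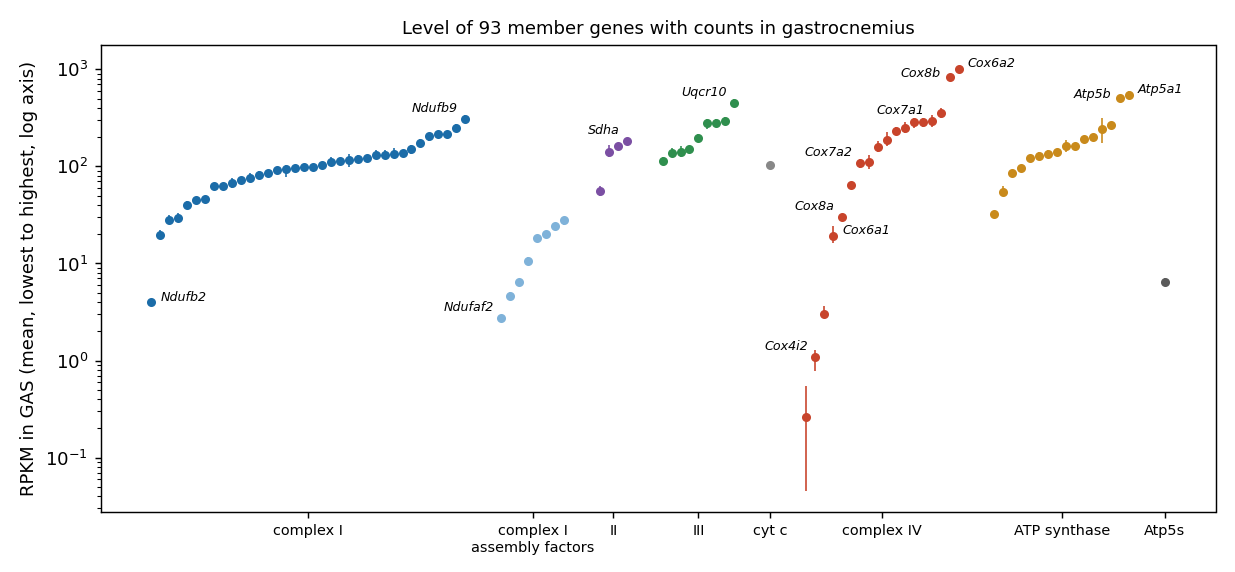
Mean RPKM in GAS of the 93 members with counts, with a bar from the lowest to the highest of 3 libraries, on a log axis and sorted within each complex. Cox6a2 (1018 RPKM) and Cox8b (830 RPKM) lie above all other members, and the complex I assembly factors stay below 30 RPKM.

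In complex I, Ndufb9 was highest at 309 ± 27.8 RPKM (SD, n = 3). Ndufb2 was lowest at 3.97 ± 0.171 RPKM, and by principal transcript it stayed lowest of the complex at 5.11 RPKM. The assembly factors ranged from 2.72 RPKM for Ndufaf2 to 24.2 RPKM for Ndufaf1 and 27.7 RPKM for Ndufaf5. By principal transcript Ndufaf3 was the lowest of them at 7.92 RPKM, with Ndufaf2 at 11.9 RPKM. In complex II, Sdha (180 ± 10.2) and Sdhd (164 ± 10.3) were highest and Sdhc (55.3 ± 6.71) lowest by exon length. By principal transcript Sdhb came first at 276 RPKM, then Sdha at 257 RPKM, and Sdhc stayed lowest. In complex III, Uqcr10 (447 ± 40.9) and Uqcrfs1 (296 ± 25.8), the Rieske iron-sulfur protein, were highest by exon length, and Uqcrc1 (113 ± 11.7) lowest. By principal transcript Uqcr10 stayed first at 601 RPKM, and Uqcrb (460), Uqcrh (444) and Uqcr11 (401) lay above Uqcrfs1 (296). Uqcrc1 was at 282 RPKM and Uqcrq was lowest at 168 RPKM. The principal transcript of Uqcrq is 1521 bases, against 445 for Uqcr11. In raw counts Uqcrq (4651, 5870 and 4465) lay above Uqcr11 (3564, 3896 and 3022). Cyc1 was at 137 ± 14.5 RPKM and Cycs, without the reads on its copies, at 102 ± 5.94 RPKM. Ndufv3, called higher in MT, was at 29.5 ± 3.44 RPKM in GAS.

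The lowest ATP synthase gene by exon length was Atp5l at 32.1 RPKM, but its annotated exons span 6443 bases against 544 in the principal transcript. By principal transcript Atp5l was at 380 RPKM and Atp5g1 was lowest at 56.7 RPKM. That place depends on length too, as the principal transcript of Atp5g1 is 4715 bases, against 731 for Atp5g2 and 723 for Atp5g3. Pseudogene copies of Atp5l also took 14.9% of the reads on gene and copies in cultured cells. In GAS, its copy Gm10221 held 2575 counts against 12133 for Atp5l. Among the c-ring genes, Atp5g3 (160 ± 23.0) was above Atp5g2 (84.7 ± 5.30) and Atp5g1 (54.4 ± 7.53) in each library by exon length. The annotated exons span 4912 bases for Atp5g1, against 1675 for Atp5g2 and 2181 for Atp5g3. In raw counts Atp5g1 (4860, 6110 and 4736) lay above Atp5g2 (2719, 2995 and 2616) in each library. These levels leave out the reads on copies of Atp5g1 and Atp5g2. In complex IV, Cox4i1 (283 ± 35.3) far exceeded Cox4i2 (1.08 ± 0.259), Cox6b1 (357 ± 42.6) exceeded Cox6b2 (0.261 ± 0.260), and Ndufa4 (248 ± 31.9) exceeded Ndufa4l2 (3.03 ± 0.506). Cox7b2 and Cox8c had 0 counts in all 3 libraries, which allows up to 0.155 CPM in the shallowest of them. Across the 95 members, levels in GAS and MT had a Spearman rho of 0.80, and levels in MB and MT one of 0.83, as a description over genes that share libraries and lengths.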

How the data were processed

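RNA of 9 libraries (GAS 3, MT 2, MB 2, MB_lac 2) was sequenced. Per the submitters' processing notes the authors used FastQC 0.11.0, Trim Galore 0.6.6, HISAT2 2.2.1 on mm10 and featureCounts (Subread 2.0.1), and deposited raw read counts per Ensembl gene, one file per library. The annotation release, strand setting and treatment of reads with several matches are not given in the sources used here; since such reads can be dropped or split, counts of genes with near-identical copies are uncertain.

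Symbols, biotypes and lengths came from GENCODE M21, promoter windows from RefSeq (GRCm38.p6). The rule matched 96 protein-coding genes, of which 95 were in the files; 13 pseudogene or noncoding matches were left out. The members, lists and tests were chosen with earlier results of these data known. Groups were compared in edgeR 4.0.16 (R 4.3.3; filterByExpr, TMM, quasi-likelihood test, Benjamini-Hochberg over all genes tested), fitted on the 4 libraries of each contrast, with thresholds on adjusted p (0.05) or nominal p (0.01) and log2 fold change (0.5) as in the study's methods. DESeq2 1.42.0 was an alternative. The fits were also run on simulated data with less spread between libraries than these data have, which does not show how they perform here. CPM and RPKM were TMM-scaled, separately for GAS and cultured cells. The genes named are the alternative isoforms, the called members, the extreme estimates and GAS levels of each complex, the Sdh genes, Cyc1 and Cycs, the 3 smallest p-values after lactate and members with at most 3 counts in every library of a group; other genes were named after their values were seen. A further gene named by this rule is not reported here. Copies were sought with BLAST 2.17.0 and pairs aligned with Biopython 1.88. With 2 libraries in a group, p-values rest on few replicates, and counting intervals are exact and cover counting error only.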

Additional observations from a re-analysis of the deposited data

How the results depend on the processing

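For MT against MB, 4 members were called higher under RLE size factors, no filter on low counts, DESeq2, no threshold on the log2 fold change, all 6 cultured libraries in one fit and the replicate block. A filter of at least 10 counts in every library left 1, Ndufv3, because it removes the muscle isoforms by construction. With 1 library left out, 3 to 6 were called higher and 0 to 2 lower. For lactate, 0 members were called under every alternative run, each leave-one-out fit included. Leaving a library out leaves an arm with 1 sample, which is then assumed to vary like the other arm. Replicate numbers pair no libraries in the labels, and 2 pairs are too few to decide: the correlation of deviations between same-numbered libraries was -0.13 for MT and MB and 0.70 for MB_lac and MB. With the replicate block, and likewise with the crossed block (chosen after seeing the data), 4 members were called higher and 0 lower in MT, and with the block 0 after lactate. Over all genes, the block gave 7 higher and 6 lower calls after lactate, against 0 without it. Without 1 library, all genes gave 1 to 176 higher calls after lactate, the most without MB replicate 2. In MT against MB they gave 962 to 4118 higher and 270 to 1570 lower calls (without MT replicate 1 to without MT replicate 2 for higher, and to without MB replicate 2 for lower), and 766 higher calls with at least 10 counts in every library, against 1425 and 887.

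The sign of the MT over MB estimate turned for 38 of the 90 tested members in at least 1 of the 4 fits that leave a library out (21 of them without MT replicate 2), and for 81 of 87 after lactate (64 without MB_lac replicate 1); the cause was not tested. RLE size factors and DESeq2 each turned the sign of 12 lactate estimates and of 0 in MT. Among the members named, 10 turned in MT over MB, where the log2 fold changes without 1 library ran from -0.85 to 0.28 for Cox7a2, -0.22 to 0.27 for Sdha, -0.60 to 0.027 for Cox4i1, -0.22 to 0.43 for Cox6b1, -0.34 to 0.67 for Cox6c, -0.38 to 0.86 for Cox7b, -0.83 to 0.15 for Ndufa4, -0.14 to 0.62 for Ndufa11, -0.95 to 0.14 for Uqcrh and -1.41 to 0.32 for Ndufaf4. For lactate, Atp5l ran from -0.20 to 0.85.

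The GAS median of 113 RPKM became 164 RPKM with the longest transcript and 194 RPKM with the principal transcript (added after seeing the data), since the annotated exons together exceed any transcript. In GAS the share of Cox7a1 was 67.8% with the longest transcript, 72.2% with the principal transcript and 60.8% in raw counts. That of Cox8b in GAS was 96.1% with either transcript length and 94.2% in raw counts, and that of Cox6a2 was 97.7% with the principal transcript. In MT the raw-count shares were 37.8% for Cox8b and 11.4% for Cox7a1, against 51.0 and 18.2%, and in MB 0.287% for Cox7a1 and 0.0452% for Cox8b, against 0.506 and 0.0776%. Other alternatives moved levels, shares and complex sums by less than the spread of the libraries. Where a library was left out, this was fixed in advance or nearly so, because the spread comes from the same few libraries. It does not show that these values are stable. With 2 libraries in a group and 5198247 counts in the shallowest, genes with under about 10 counts could not be tested.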

Other observations

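The symbol rule leaves out genes that belong to the same enzyme under another name. Usmg5, a small ATP synthase subunit that RefSeq lists as Atp5md, had 169 and 224 CPM in MT, 148 and 211 CPM in MB, 228 and 184 CPM in MB_lac and 189 ± 19.0 CPM (SD, n = 3) in GAS, with overlapping cultured groups. Atpif1, the inhibitor of the ATP synthase, had a log2 fold change of -0.56 ± 0.44 in MT over MB and was not called.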
